A study of Mus musculus with 4 samples.

Results

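Megakaryocytes are the bone marrow cells that shed platelets into the blood, and 10 genes of that lineage were followed here in stem and progenitor cells with and without Meis1. The genes were *Pf4*, *Itga2b*, *Gp1ba*, *Gp1bb*, *Gp5*, *Gp9*, *Vwf*, *Ppbp*, *Selp* and *Treml1*, chosen by name for their place in megakaryocytes and platelets. Every non-control probe of the array that carries 1 of these gene names was taken, which gave 13 of 41174 probes, and the 10 genes are among 28095 gene names. *Vwf* had 3 probes, *Selp* had 2 and each other gene had 1.

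The RNA came from LSK cells, also written KSL, the lineage-negative bone marrow cells that carry Sca-1 and c-Kit and hold the hematopoietic stem cells and early progenitors. The lineage antibodies of the sort were against CD11b, Gr-1, TER119, B220 and CD3, so megakaryocyte surface proteins were not used to exclude cells. Meis1-KO LSK cells came from C57BL/6J mice with loxP-flanked Meis1 alleles (Meis1 fl/fl) and the Mx1-Cre transgene, and Meis1-WT LSK cells came from Meis1 fl/fl mice without Mx1-Cre. Both genotypes carried the flanked alleles. The mice were 4 to 8 weeks old when poly(I:C), a mimic of viral RNA, was given at 1.5 µg per g in 4 injections, and cells were taken 1 week later. The labels describe injection of both genotypes, whereas the deposited design text and the array methods describe the controls as sham-treated, and if the controls were sham-treated, poly(I:C) and Meis1 loss cannot be told apart. The promoter of Mx1 responds to interferon and drives Cre in other tissues as well as in blood cells. Each genotype had 2 arrays, each of 1 pool of mice, and which mice made up a pool was not analysed here.

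Among the 10 genes, the transcripts of secreted granule proteins and of surface receptors divide the work of a platelet. Alpha granules hold chemokines such as the products of *Pf4* and *Ppbp*, the adhesive protein encoded by *Vwf*, and membrane proteins that reach the surface on activation, among them P-selectin (*Selp*) and TREM-like transcript 1 (*Treml1*). Integrin alpha IIb (*Itga2b*, CD41) pairs with integrin beta 3 as the fibrinogen receptor, and the products of *Gp1ba*, *Gp1bb*, *Gp5* and *Gp9* form the receptor for von Willebrand factor. Some of these genes are transcribed well before the megakaryocyte stage: *Itga2b* marks early hematopoietic cells, and *Vwf* and *Selp* are expressed in a share of hematopoietic stem cells and also in endothelium.

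Values are log2 signals relative to the 75th percentile of the same array, so 0 is the 75th percentile, and levels are compared between arrays and not between genes, since each probe binds with its own strength. Sums of signals over a gene list, given near the end, weigh each probe by its brightness and are compared between arrays only. A difference is Meis1-KO minus Meis1-WT. Array 1 of both genotypes lay on slide 1 and array 2 of both on slide 2, and the difference within each slide is given beside the overall one. The test was limma, run on probes whose signal stood well above background on each array of 1 genotype or of both. The criteria of the study are an unadjusted p under 0.01 and a change of more than 2-fold. Of the 13 probes, 11 passed the filter, covering 9 of the 10 genes, and these 11 were well above background on all 4 arrays.

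1 of the 11 tested probes, that of *Treml1*, met the criteria, and it was lower in Meis1-KO LSK cells. Over all 22007 tested probes, 0.600% met the criteria in that direction and 0.136% in the other, in which no member did. *Itga2b* and *Pf4* were also lower on both slides but missed the criteria. The other 6 genes with a tested probe differed in opposite directions on slide 1 and slide 2. The median difference of the 11 probes was 0.03, against 0.08 over all tested probes. No probe of the array had an adjusted p under 0.05 by limma (0 of 22007, the smallest being 0.467), while 618 had an unadjusted p under 0.05. The methods' t-test gave 528 such probes and 0 after adjustment. Once limma took the slide as a block, 1335 probes had an unadjusted p under 0.05 and 50 probes had an adjusted p under 0.05, none of them a member.

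**Figure D1:**
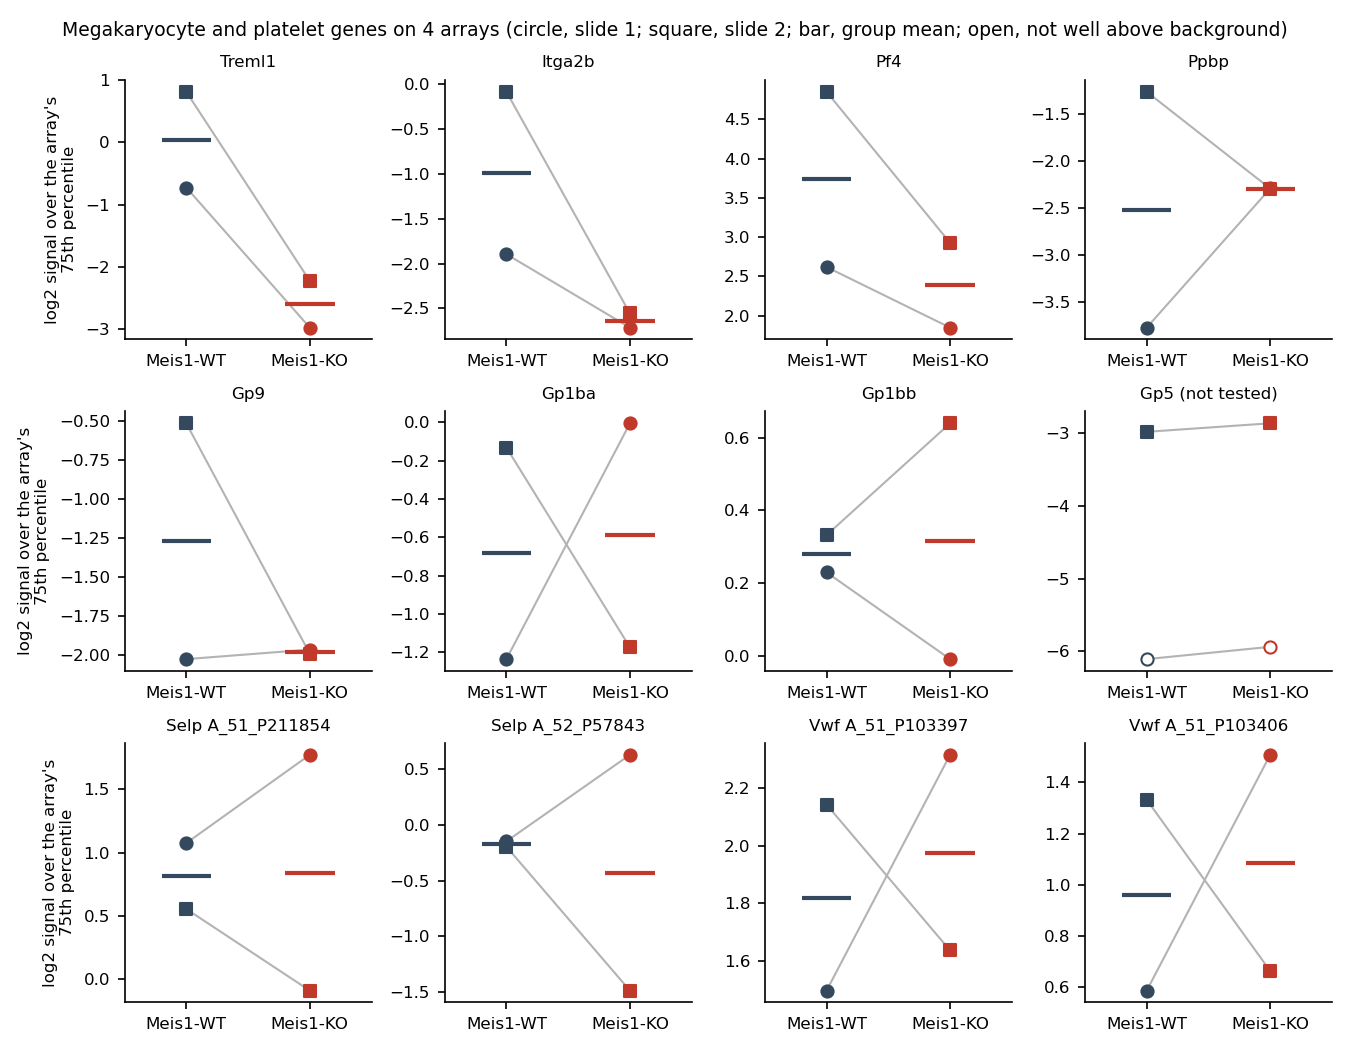
Log2 signal over the array's 75th percentile (y axis, a scale of its own in each panel) for 12 of the 13 probes on the 2 Meis1-WT and 2 Meis1-KO arrays. Circles are slide 1, squares are slide 2, grey lines join arrays of the same slide, bars are group means of tested probes, and open symbols were not well above background. Both lines fall from Meis1-WT to Meis1-KO for *Treml1*, *Itga2b* and *Pf4*, and they cross or diverge for *Gp1ba*, *Selp* and *Vwf*.

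The sequences before the start of transcription are shown first for the 3 genes that were lower on both slides and for *Gp1ba*, which was not and whose promoter holds the most words for GATA factors beside that of *Gp5*. They are the 250 bases upstream of the start in RefSeq (GRCm38.p6), read 5′ to 3′ on the strand of the gene. Capitals mark exact matches on either strand. The words searched for GATA factors were AGATAA and, with another last base, AGATAG, and beside these, with another first base, TGATAA and finally TGATAG. The word for ETS factors was GGAAGT and the word for MEIS factors was TGACAG.
*Treml1* promoter, chr17:48359666-48359915, plus strand: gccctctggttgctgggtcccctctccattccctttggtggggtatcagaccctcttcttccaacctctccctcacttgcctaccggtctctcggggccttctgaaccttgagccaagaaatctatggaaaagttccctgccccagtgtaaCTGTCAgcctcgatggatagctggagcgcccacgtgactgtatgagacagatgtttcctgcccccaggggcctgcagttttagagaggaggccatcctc
*Itga2b* promoter, chr11:102469884-102470133, minus strand: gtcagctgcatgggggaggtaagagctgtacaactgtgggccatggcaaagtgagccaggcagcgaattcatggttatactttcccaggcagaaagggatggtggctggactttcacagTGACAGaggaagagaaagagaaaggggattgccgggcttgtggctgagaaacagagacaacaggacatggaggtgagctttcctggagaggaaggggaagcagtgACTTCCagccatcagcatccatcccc
*Pf4* promoter, chr5:90772185-90772434, plus strand: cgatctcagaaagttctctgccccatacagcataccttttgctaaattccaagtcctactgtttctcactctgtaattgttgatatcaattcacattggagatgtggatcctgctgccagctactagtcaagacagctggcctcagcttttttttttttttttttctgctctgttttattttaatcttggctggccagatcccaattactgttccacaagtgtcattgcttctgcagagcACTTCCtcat
*Gp1ba* promoter, chr11:70638872-70639121, plus strand: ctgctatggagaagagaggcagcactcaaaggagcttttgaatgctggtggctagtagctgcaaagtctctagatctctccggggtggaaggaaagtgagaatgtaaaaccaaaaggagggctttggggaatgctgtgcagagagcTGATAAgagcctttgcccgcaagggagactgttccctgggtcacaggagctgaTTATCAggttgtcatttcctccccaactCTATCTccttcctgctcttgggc

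A promoter was found for 9 of the 10 genes, all but *Vwf*. GATA and ETS proteins such as GATA1 and FLI1 are the main regulators of megakaryocyte genes, and TGACAG is the word that MEIS and related homeodomain proteins bind. The MEIS word was found in 5 of the 9 windows, those of *Treml1*, *Itga2b*, *Gp9*, *Gp5* and *Selp*, and in 15.9% of all 32851 promoter windows of the same length, several of which can belong to 1 gene. The ETS word was found in 5 of the 9, those of *Itga2b*, *Pf4*, *Ppbp*, *Gp9* and *Gp5*, against 19.7% of all windows. A GATA word was found in 3 of the 9, those of *Gp1ba*, *Gp1bb* and *Gp5*, against 26.5% of all windows. No matches overlapped. No word was shared by the windows of *Treml1*, *Itga2b* and *Pf4*: *Itga2b* holds the MEIS and the ETS word, *Treml1* the MEIS word only and *Pf4* the ETS word only. A match is only a run of letters in this window, and binding was not measured.

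**Figure D2:**
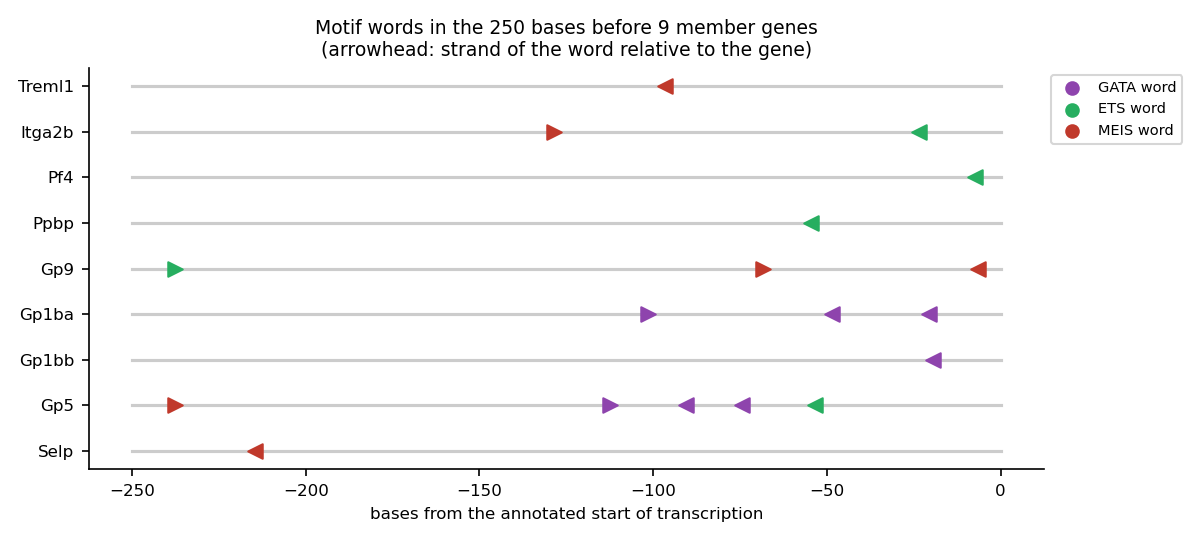
Positions of the searched words in the 250 bases before the start of transcription of 9 member genes (x axis, bases from the start). Colours give the word and arrowheads its strand relative to the gene, with the MEIS word in 5 windows, the ETS word in 5 and a GATA word in 3.

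*Treml1* encodes a receptor held in platelet alpha granules, and it showed the largest difference among the members. Its probe A_51_P279062 (chromosome 17, 48506365 to 48506424, mm9) read -2.98 and -2.23 on the Meis1-KO arrays and -0.73 and 0.81 on the Meis1-WT arrays. Both Meis1-KO arrays lay below both Meis1-WT arrays. The difference was -2.65 ± 0.64 (SE, n = 2 arrays per genotype), a 6.27-fold lower signal, with an unadjusted p = 0.00579 and an adjusted p = 0.983 by limma. Within slides the differences were -2.25 on slide 1 and -3.04 on slide 2, and 0.432% of all tested probes had a lower overall difference. With the slide as a block, the unadjusted p was 3.0e-04 and the adjusted p 0.0958 by limma. Both Meis1-KO signals were dim, at 18.8 and 19.3 units against a 75th percentile of 148 and 90.3 on those arrays, and normexp background correction, which shrinks low signals, brought the difference to -1.03 (unadjusted p = 0.0497 by limma). The criteria were also missed without Meis1-KO array 1 (-2.27, unadjusted p = 0.0175 by limma), without Meis1-WT array 2 (-1.88, unadjusted p = 0.0530) and by the methods' t-test (unadjusted p = 0.0907). In sorted cells profiled in bulk, fewer cells of a type and less RNA per cell cannot be told apart.

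*Itga2b*, the gene of CD41, was read by 1 probe that crosses an exon junction, as its 60 bases cover 209 bases of the minus strand of chromosome 11 (102319453 to 102319661, mm9). The sequence is shown because it can bind only the spliced transcript in full.
*Itga2b* probe A_52_P459564: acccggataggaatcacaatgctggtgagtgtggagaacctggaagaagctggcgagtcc
The values were -2.71 and -2.56 on the Meis1-KO arrays and -1.90 and -0.08 on the Meis1-WT arrays. The groups did not overlap, but the Meis1-WT arrays differed from each other by more than Meis1-WT array 1 differed from the Meis1-KO arrays. The difference was -1.65 ± 0.66 (SE, n = 2 per genotype), with an unadjusted p = 0.0469 and an adjusted p = 0.983 by limma. The slide as a block gave an unadjusted p = 0.0124 by limma. It was -0.82 on slide 1 and -2.47 on slide 2. Without Meis1-WT array 2 it was -0.74, and after normexp background correction -0.45. *Itgb3*, whose product is the partner chain of alpha IIb, was 6.42 and 6.72 on the Meis1-KO arrays and 6.02 and 6.52 on the Meis1-WT arrays, a difference of 0.30 ± 0.45 (SE). In the promoters above, *Itga2b* has its ETS word at -26 to -21 from the start.

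*Pf4* and *Ppbp* encode platelet chemokines of the CXC family and are neighbours on chromosome 5. The *Pf4* probe A_51_P441426 (chromosome 5, 91202275 to 91202334, mm9) read 1.85 and 2.93 on the Meis1-KO arrays and 2.62 and 4.85 on the Meis1-WT arrays. The groups overlapped, since Meis1-KO array 2 was above Meis1-WT array 1, but on each slide the Meis1-KO array was the lower. The difference was -1.35 ± 0.82 (SE), at -0.77 on slide 1 and -1.92 on slide 2 (unadjusted p = 0.150, adjusted p = 0.983 by limma). A block for the slide gave an unadjusted p = 0.0238 by limma. Most of it rested on 1 array, as the difference was -0.23 without Meis1-WT array 2.

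The *Ppbp* probe A_51_P428372 (chromosome 5, 91198970 to 91199029, mm9) read -2.29 on both Meis1-KO arrays, and -3.77 and -1.26 on the Meis1-WT arrays. The Meis1-KO values thus lay between those of the controls. The difference was 0.22 ± 0.83 (SE), at 1.48 on slide 1 and -1.03 on slide 2. On slide 1 the neighbouring genes therefore differed in direction, and on slide 2 both were lower in Meis1-KO cells.

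Of the 4 subunits of the receptor for von Willebrand factor 3 were tested, and these had no common direction. The probe of *Gp1ba*, the subunit that binds the factor (A_51_P346243, chromosome 11, 70455415 to 70455474, mm9), read -0.00 and -1.17 on the Meis1-KO arrays and -1.24 and -0.13 on the Meis1-WT arrays. Each genotype had a high and a low array, and the difference of 0.09 ± 0.62 (SE) was made of 1.23 on slide 1 and -1.04 on slide 2. *Gp9*, needed for the complex to reach the surface, was read by A_51_P153995 (chromosome 6, 87729650 to 87729709) at -1.97 and -1.99 on the Meis1-KO arrays and at -2.03 and -0.52 on the Meis1-WT arrays. Its 2 Meis1-KO arrays and Meis1-WT array 1 were alike and Meis1-WT array 2 stood above them, so that the difference of -0.71 ± 0.60 (SE) was 0.05 without that array.

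*Gp1bb*, whose product is joined to that of *Gp1ba* by disulfide bonds, was the steadiest of the members. Its probe A_51_P151576 (chromosome 16, 18621107 to 18621166, mm9, minus strand) read -0.01 and 0.64 on the Meis1-KO arrays and 0.23 and 0.33 on the Meis1-WT arrays. The difference was 0.03 ± 0.46 (SE), at -0.24 on slide 1 and 0.31 on slide 2. The sequence is shown because 80% of its bases are G or C, the highest share among the 13 probes.
*Gp1bb* probe A_51_P151576: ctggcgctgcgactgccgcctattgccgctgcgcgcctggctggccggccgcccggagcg
The RefSeq gene overlaps that of *Septin5* (*Sept5* on the array), and both probes of *Sept5* were too dim to be tested. *Gp5*, the subunit that is lost on cleavage by thrombin, was not tested. Its probe A_51_P439996 (chromosome 16, 30308347 to 30308406) was well above background on 1 array of each genotype, both on slide 2, where it read -2.86 in Meis1-KO and -2.98 in Meis1-WT cells. On slide 1 it read -5.94 and -6.11, below that limit on both arrays, so this gene separated the slides and not the genotypes.

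*Vwf* and *Selp* encode adhesive proteins stored in alpha granules and also made by endothelial cells. *Vwf* was tested at 2 probes, A_51_P103397 (chromosome 6, 125636551 to 125636610, mm9) and A_51_P103406 (125635858 to 125635917). The first read 2.32 and 1.64 on the Meis1-KO arrays and 1.50 and 2.14 on the Meis1-WT arrays, and the second 1.51 and 0.66 against 0.59 and 1.33. Both probes had the same order of arrays, with Meis1-KO array 1 the highest and Meis1-WT array 1 the lowest. The differences were 0.16 ± 0.50 (SE) and 0.13 ± 0.53 (SE), and for each probe the difference was above 0 on slide 1 (0.82 and 0.92) and below it on slide 2 (-0.51 and -0.67). The remaining *Vwf* probe, A_51_P206886, is named for another transcript and was not well above background on any array.

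For *Selp*, probe A_51_P211854 (chromosome 1, 166079660 to 166079719, mm9) was printed at 10 spots on each array, which shows how far spots differ within 1 array. The SD over its 10 spots was 0.060 to 0.092 on the log2 scale. The spots' means were 1.77 and -0.09 on the Meis1-KO arrays and 1.08 and 0.55 on the Meis1-WT arrays, and no array's range of spots overlapped that of another. This SD leaves out amplification, labelling and hybridization. The SD between the 2 Meis1-KO arrays was 1.32, and the difference between genotypes was 0.03 ± 0.69 (SE). Probe A_52_P57843 (166071558 to 166071617) read 0.63 and -1.48 on the Meis1-KO arrays and -0.15 and -0.20 on the Meis1-WT arrays, a difference of -0.26 ± 0.73 (SE). At both probes Meis1-KO array 1 was the highest and Meis1-KO array 2 the lowest, giving 0.70 and 0.77 on slide 1 and -0.65 and -1.29 on slide 2.

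The genotype difference of most members was not the same on both slides. On slide 2, 10 of the 11 tested probes were lower in Meis1-KO cells, all but that of *Gp1bb*, with a median of -1.04, where 44.0% of all tested probes were lower on that slide. On slide 1, 4 of the 11 were lower, where 46.7% of all tested probes were, and the median was 0.70. Over all tested probes the medians were 0.03 on slide 1 and 0.13 on slide 2. The 3 probes lower on both slides (*Treml1*, *Itga2b* and *Pf4*) compare with 21.0% of all tested probes, and 0 of the 11 were higher on both slides, where 30.3% were. The 2 probes with both Meis1-KO arrays below both Meis1-WT arrays (*Treml1* and *Itga2b*) compare with 10.9%. Meis1-WT array 2 was the highest array for 5 probes, those of *Treml1*, *Itga2b*, *Pf4*, *Gp9* and *Ppbp*, and Meis1-KO array 1 for another 5, those of *Gp1ba*, *Vwf* and *Selp*. Over all tested probes, 18.6% were highest on Meis1-WT array 2 and 18.7% on Meis1-KO array 1, arrays that were chosen for this count after the values were seen.

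**Figure D3:**
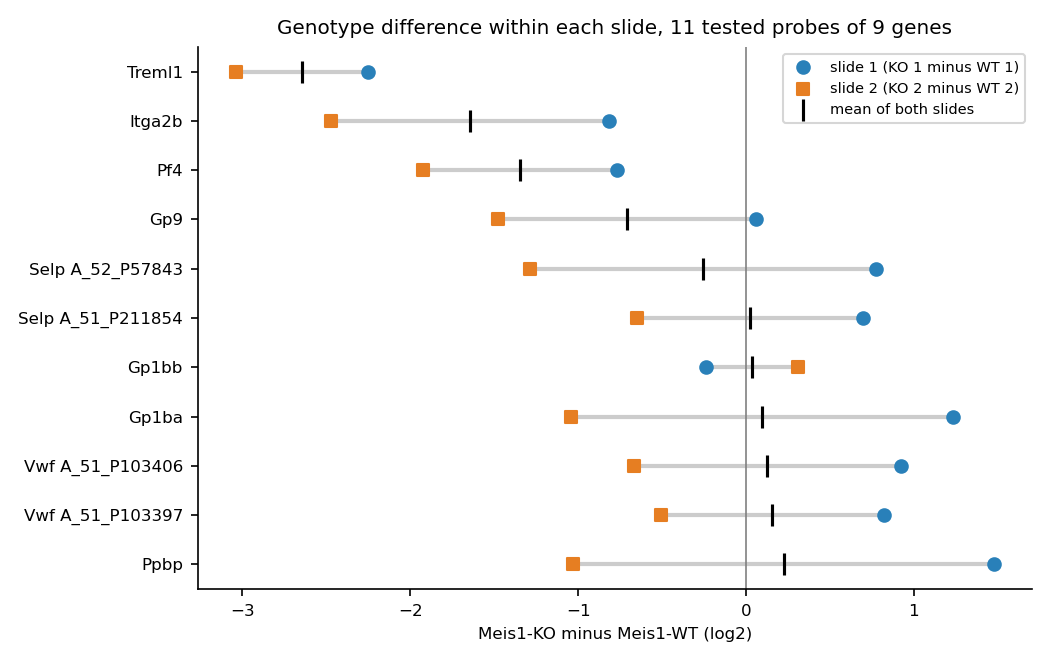
Meis1-KO minus Meis1-WT on the log2 scale (x axis) within slide 1 (circles) and slide 2 (squares) for the 11 tested probes, with the mean of both slides as a black tick. *Treml1*, *Itga2b* and *Pf4* lie below 0 on both slides, *Gp1bb* is above 0 only on slide 2, and the other 7 probes are above 0 on slide 1 and below it on slide 2.

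The call for *Treml1* held under 9 of 13 other ways of processing, and its sign under all 13. *Itga2b* and *Pf4* were negative under the same 13 and met the criteria under none. With the slide as a block 1.40% of all tested probes met the criteria as lower, and *Treml1* was still the only member that did.

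**Figure D4:**
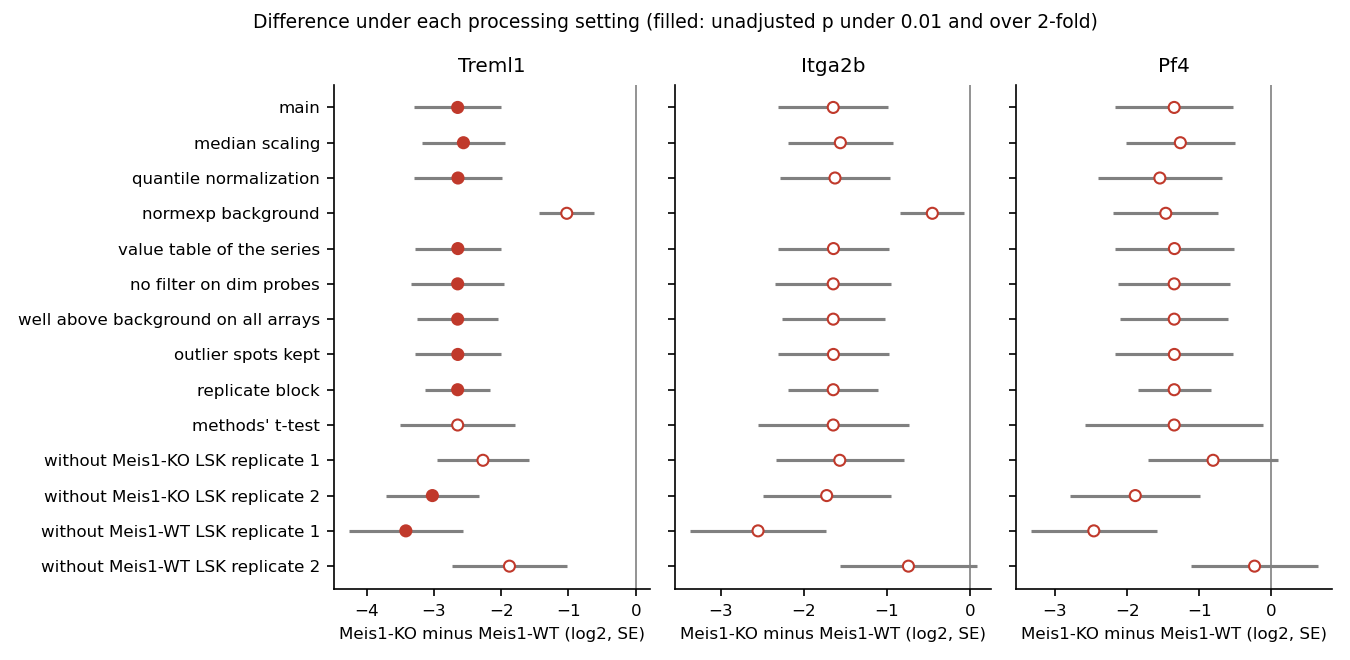
Meis1-KO minus Meis1-WT on the log2 scale with its SE (x axis) for *Treml1*, *Itga2b* and *Pf4* in the analysis as reported (main) and under 13 alternatives (y axis). Filled symbols met the criteria of the study, and all symbols lie below 0, with the *Pf4* value nearest to 0 when Meis1-WT array 2 was left out.

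A wider set of 85 genes of the same lineage, of which 83 were on the array and 71 had a tested probe, was read at the brightest tested probe of each gene. 1 of the 71 met the criteria, lower in Meis1-KO cells, and none was higher, where 0.600% of all tested probes met them as lower and 0.136% as higher. The median difference was -0.02, against 0.08 over all tested probes. On both slides 19 genes were lower and 14 higher, where 21.0% and 30.3% of all tested probes were. The gene that met the criteria was *Mmrn1*, which encodes multimerin 1, the carrier of factor V in alpha granules. It read 1.09 and 0.67 on the Meis1-KO arrays and 2.44 and 2.66 on the Meis1-WT arrays, with no overlap, a difference of -1.67 ± 0.44 (SE) and an unadjusted p = 0.00843 (adjusted p = 0.983 by limma). With the median in place of the 75th percentile as the scale, its unadjusted p was 0.0116 by limma, with no filter on dim probes 0.0166, and by the methods' t-test 0.0196. It also missed the criteria without Meis1-KO array 2 (-1.46), without Meis1-WT array 1 (-1.78) and without Meis1-WT array 2 (-1.56).

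*Mmrn1* is 1 of 16 tested genes of granule cargo and granule formation, with a median difference of -0.25, of which 7 were lower and 3 higher on both slides, beside the same 21.0% and 30.3% of all tested probes. With the slide as a block, *Thbs1*, the gene of the adhesive granule protein thrombospondin 1, and *Timp3*, an inhibitor of metalloproteinases, met the criteria as well, both lower, where 1.40% of all tested probes met them as lower in that fit. *Thbs1* read -3.49 and -5.21 on the Meis1-KO arrays and -2.87 and -0.81 on the Meis1-WT arrays, with a difference of -2.51 ± 0.87 (SE). Meis1-KO array 2 was not well above background (2.44 units), so that the -4.40 of slide 2 is set by the floor of the signal, and on slide 1, where both arrays were, the difference was -0.62. It was -0.28 after normexp background correction, -1.65 without Meis1-KO array 2 and -1.48 without Meis1-WT array 2. *Timp3* read -3.50 and -2.35 against -1.92 and -0.40, at -1.58 and -1.95 on the slides. Both Meis1-KO arrays lay below both Meis1-WT arrays, and the difference was -1.76 ± 0.69 (SE). It was -0.43 after normexp background correction and -1.001 without Meis1-WT array 2.

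None of the 10 tested transcription factor genes of megakaryocytes met the criteria, with or without the block, and their median difference was -0.25. *Gata1*, the main factor of the megakaryocyte and erythroid lineages, read -2.74 and -1.61 on the Meis1-KO arrays and -3.10 and -1.50 on the Meis1-WT arrays (difference 0.12 ± 0.70, SE). *Fli1*, an ETS factor, had a difference of -0.46 ± 0.45 (SE) and *Nfe2*, which drives the last steps of platelet formation, one of 0.41 ± 0.56 (SE). None of the 6 genes of thrombopoietin signalling met the criteria (median 0.13).

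Of 22 further surface receptors 15 were tested, and none met the criteria (median 0.15). Of these 5 were lower and 10 higher, and on both slides 1 was lower and 4 were higher, where 21.0% and 30.3% of all tested probes were. *Gp6*, the collagen receptor, was too dim to be tested. None of the 11 tested genes of the cytoskeleton and integrin activation met them (median -0.12), and *Tubb1* was not found on the array. None of the 13 tested genes of enzymes and signalling did either (median -0.25), of which 8 were lower and 5 higher, with 5 lower and 2 higher on both slides. Of the 2 higher on both slides, *Rgs18*, a regulator of G protein signalling, had a difference of 0.67 ± 0.44 (SE).

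**Figure D5:**
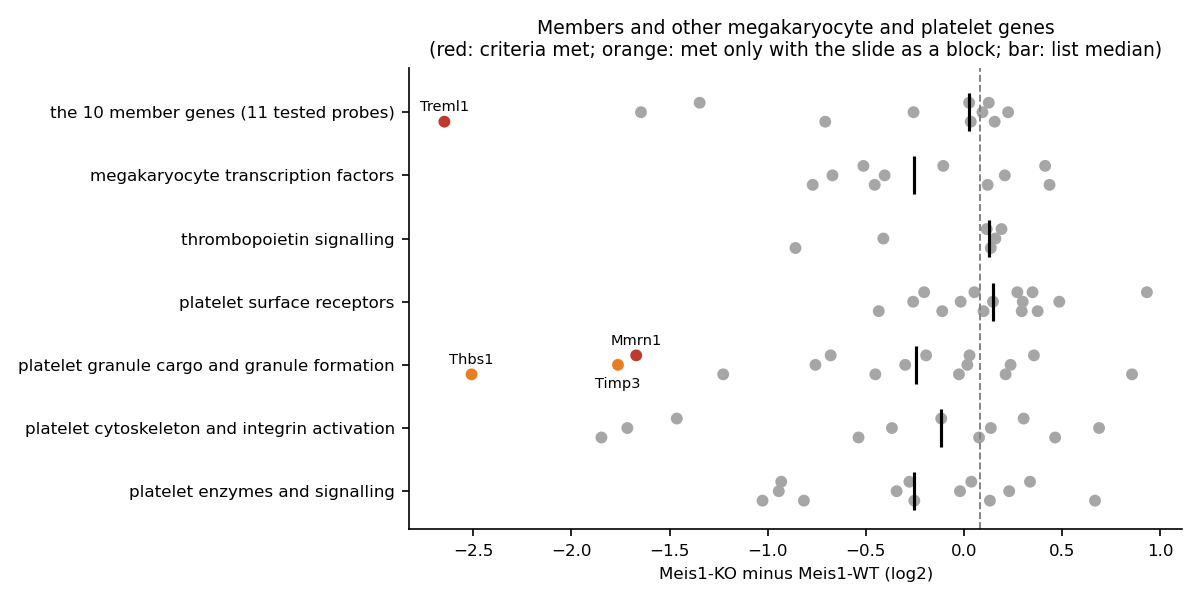
Meis1-KO minus Meis1-WT on the log2 scale (x axis) for the 11 tested member probes and for the brightest tested probe of 71 other megakaryocyte and platelet genes, in rows by function. Red points met the criteria of the study, orange points met them only with the slide as a block, bars are medians of a row, and the dashed line is the median of all tested probes, 0.08.

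Genes used as markers of the sorted cells and of other lineages were read as well. LSK cells may express some markers of other lineages themselves, and the cells behind each signal were not tested. *Kit* and *Ly6a*, the genes of c-Kit and Sca-1, were above the 75th percentile on all 4 arrays, with differences of -0.21 and 0.03. Of the endothelial genes, 9 of 12 were tested, and *Cdh5* and *Sox17* were not well above background on any array. The signal of the 9 genes summed to 19.5 and 28.9 times the 75th percentile in Meis1-KO cells and to 20.3 and 17.7 times in Meis1-WT cells, and without *Egfl7*, which gave most of the 28.9, to 11.4 and 8.06 against 9.98 and 8.32. Without that gene the arrays had the order they had at both *Selp* probes, and not that of the *Vwf* probes. Of the single genes, *Tek* (-0.51 and -2.40 in Meis1-KO, -0.98 and -0.81 in Meis1-WT cells), *Kdr* (-2.19 and -5.07 against -2.66 and -2.33) and *Tie1* (0.699 and -0.20 against 0.39 and 0.699) had Meis1-KO array 2 lowest and Meis1-KO array 1 highest, for *Tie1* by under 0.01, as *Selp* did, but *Kdr* was not well above background on Meis1-KO array 2, where its value is set by the floor of the signal. *Egfl7*, *Esam* and *Flt1* instead had Meis1-KO array 2 highest, and the remaining 3 genes had neither order. These genes were chosen after their values were seen, and the part of endothelial RNA in *Vwf* and *Selp* was not tested. None of the 9 met the criteria (median -0.29), and with the block *Flt1*, not well above background on either Meis1-WT array, met them as higher. *Pecam1* and *Esam* stand both among these genes and among the platelet receptors.

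Summed over 10 tested erythroid genes, the signal was 114 and 258 times the 75th percentile in Meis1-KO cells and 100.2 and 38.4 times in Meis1-WT cells. Most of each sum was *Hbb-b1*, a globin gene, and the other 9 genes summed to 20.2 and 14.5 against 21.2 and 16.4. Of the 10 genes 6 were lower and 4 higher, with a median difference of -0.18. For 11 neutrophil and monocyte genes the sums were 190 and 152 against 202 and 77.9. Meis1-WT array 2, the highest for *Treml1*, *Itga2b* and *Pf4*, had the lowest sum for the neutrophil and monocyte list, also without *Mpo*, the largest part of that sum (72.6 and 69.7 against 108 and 31.1). It also had the lowest endothelial, erythroid and B-lineage sums, the endothelial and erythroid ones not without their largest gene. Single neutrophil and monocyte genes differed, as *Lyz2* read 3.81 and 3.96 and *S100a9* 6.06 and 1.31 on Meis1-WT arrays 1 and 2. This array was singled out after the values were seen. The sums of 10 genes of hematopoietic stem cells were 46.2 and 42.1 in Meis1-KO and 97.9 and 66.7 in Meis1-WT cells. Most of the gap came from *Hlf* and *Mllt3*, without which the sums of the other 8 genes were 29.9 and 33.2 against 38.2 and 31.2. Of the 10 genes 6 were lower and 4 higher, 2 of them lower and 2 higher on both slides, with a median difference of -0.18. Those of 4 tested B-lineage genes were 11.8 and 8.35 against 18.4 and 7.36, and those of 4 T-lineage genes 2.73 and 1.57 against 2.68 and 2.68. *Vpreb1* and *Thy1* made most of these sums, and without them the sums were 1.65 and 1.63 against 2.77 and 1.42 for the B lineage and 0.37 and 0.32 against 0.61 and 0.53 for the T lineage. All 4 genes of either list had a difference below 0, 2 of each on both slides (medians -0.42 and -0.42), and none met the criteria. *Pax5*, *Igll1*, *Cd3e* and *Cd3g* were not well above background on any array. Among these lists *Hlf*, of the stem cell genes, and *Elane*, of the neutrophil genes, met the criteria as lower, and *Rhag*, an erythroid gene, as higher. With the slide as a block *Car1*, another erythroid gene, met them as lower (difference -1.77, at -1.66 and -1.89 on the slides). The part of these cells in the values of the members was not tested.

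The arrays differed in brightness. Their 75th percentiles were 148 and 90.3 units in Meis1-KO and 147 and 154 units in Meis1-WT cells, 49.2% to 57.4% of spots were well above background, and log2 values of any pair of arrays correlated at 0.891 to 0.967. *Meis1* itself was lower on both slides at both of its probes, by 0.77 and 1.23 at A_52_P670612 and by 0.92 and 2.47 at A_52_P26195, the direction given by the labels. The last of these values rests on a Meis1-KO array where that probe was not well above background. The place of the probes relative to the deleted exon was not analysed here.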

How the data were processed

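LSK RNA from 2 pools of mice per genotype was amplified and read on 1-color (Cy3) arrays of 60-base probes. The authors deposited the spot intensities of Feature Extraction 9.5.3.1 (per the file headers), whose processed signal is background-subtracted within the array, and a table of the same intensities, rounded. Samples were grouped by their labels. Control and outlier spots were left out here, log2 intensities were set relative to the 75th percentile of their array, and spots of a probe were averaged. Genotypes were compared with limma 3.58.1 in R 4.3.3, genotype being the only term, and p-values were adjusted (Benjamini-Hochberg) over all 22007 tested probes. The code of the fit was checked on simulated arrays with independent noise, no slide effect and changes larger than that of any member. That check does not show how the fit performs on smaller changes or with a slide effect. P-values measure the spread between these pools only. Replicate numbers are slides in both genotypes, and deviations of same-numbered arrays correlated at 0.266, so the slide was used as a block in an alternative. Every member probe was named. From the wider list, genes that met the criteria with or without the block were named, beside *Gata1*, *Fli1*, *Nfe2*, *Itgb3*, *Gp6*, *Tubb1* and *Rgs18*, and 1 further gene named by this rule is not reported here. Other genes are named only where a value or list beside a result needed them. The members, the lists and the tests were chosen with earlier results of these data known. Probe positions are those of the array files (mm9), and exons and untranslated regions were not annotated here. Promoters are from RefSeq (GRCm38.p6).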

Additional observations from a re-analysis of the deposited data

How the results depend on the processing

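The 13 alternatives were scaling by the median or by quantiles, normexp (offset 50), the deposited value table, leaving the filter out or asking it of all 4 arrays, keeping outlier spots, the block, the methods' t-test, and omission of each array, where the single array left is taken to vary as the other genotype does. Member probes called lower went from 1 to 0 with normexp and the t-test and to between 0 and 1 with an array left out, and none was called higher under any of the 13. The paired fit, with the slide as a block, kept 1 member, while all probes called lower went from 132 to 307 and those called higher from 30 to 130, and genes of the wider list called lower from 1 to 3. It changed no other call of a member. All probes called lower and higher numbered 47 and 2 with normexp, 43 and 10 with the filter on all arrays and 23 and 7 by the t-test, and 100 were called higher without a filter. They ranged from 57 to 1705 lower and from 34 to 510 higher with an array left out. Genes of the wider list called lower numbered 0 with median scaling, 2 with normexp, 0 by the t-test and 0 to 8 with an array left out. The members' median ranged from -0.72 (without Meis1-KO array 1) to 0.23 with an array left out. With normexp the difference changed sign for *Gp1bb* (-0.0087), *Vwf* A_51_P103397 (-0.014) and *Selp* A_52_P57843 (0.11). With an array left out, the range crossed 0 for *Gp1ba* (-0.49 to 0.68), *Gp1bb* (-0.29 to 0.36), *Gp9* (-1.46 to 0.048), *Vwf* A_51_P103397 (-0.18 to 0.50) and A_51_P103406 (-0.30 to 0.55), *Ppbp* (-1.03 to 1.48), and *Selp* A_51_P211854 (-0.91 to 0.96) and A_52_P57843 (-1.31 to 0.80). The cause of these changes was not tested. With 2 arrays per genotype and dim signals for *Treml1*, *Itga2b*, *Gp9* and *Ppbp*, small differences could not be resolved.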
